A study of Homo sapiens with 102 samples.

Results

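The 6 separate DMSO controls are libraries of K562 cells whose titles name only the solvent and no drug pair of the combinatorial screen. There are 3 with the label of the dT screen (DMSO_1_dT to DMSO_3_dT, here dT 1 to dT 3). The other 3 have the label of the Bio screen (DMSO_1_BIO to DMSO_3_BIO, here BIO 1 to BIO 3). They were chosen by their titles and make up 6 of the 102 libraries of the series; the other 96 hold the in-screen conditions. All cells carried the BCR-ABL fusion gene, and the labels give 12 h of incubation. In the study's screen the cells were kept at 37 °C inside picolitre droplets until they were lysed. Whether these 6 libraries were made in the same way, with DMSO in both drug positions, is not given in the sources used here. The screens differ in which drug was delivered with the barcoded poly-dT fragment and which with the biotinylated fragment, so for DMSO alone the label marks no treatment. The study ran the swapped arrangement as a repeat of the experiment, so barcode arrangement and experiment coincide. The study uses the term separate DMSO controls for droplets of untreated cells handled apart from the others in a drug-exchange experiment, and it calls the replicates of its screen independent biological experiments. Whether either statement covers these 6 libraries is not said, so the p-values measure the spread between these libraries, which may be technical. K562 is 1 established line, and each library pools many cells.

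K562 cells come from a chronic myelogenous leukemia. The BCR-ABL fusion joins a part of BCR to the tyrosine kinase ABL1 and keeps growth signals such as STAT5 and RAS-MAPK active. The line retains features of early erythroid cells, among them gamma-globin and other fetal or embryonic globin mRNAs, the transcription factor GATA1 and the enzymes that make heme. Mitochondria carry their own small genome, which encodes subunits of the respiratory chain and the 2 rRNAs of the mitochondrial ribosome. The remaining subunits and all mitochondrial ribosomal proteins are encoded in the nucleus.

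Reverse transcription started from poly-dT, a primer that pairs with the poly(A) tail of an mRNA and can also pair with runs of A inside a transcript. The reference sequences used here do not include the tail. Where priming took place was not tested. The 4 transcripts below are shown around their longest run of A, with the run in capitals, read 5′ to 3′ from the longest GENCODE release 29 transcript on GRCh38. MT-RNR2 and MT-CO1 held the largest shares of counts, HBG2 is the main globin of the line, and H1-4 is a replication-dependent histone, a class whose mRNAs end in a stem-loop and carry no poly(A) tail.
MT-RNR2: ggaaaggttAAAAAAAgtaaaagga
MT-CO1: ctactccggAAAAAAAgaaccattt
HBG2: agattaaagAAAAAcctattgtt
H1-4: gctggagccAAAAAAgcgaaaagc
The windows lie on chrM:2448-2472 inside the 16S rRNA gene, on chrM:6683-6707 inside the MT-CO1 exon, and on chr6:26156883-26156906 inside the only exon of H1-4, all on the plus strand. The HBG2 window covers bases 170 to 192 of the spliced transcript, whose gene lies on the minus strand of chromosome 11. None of the 15 mitochondrial mRNAs and rRNAs held a run of 10 or more A. Such a run was present in 22.0% of the genes counted in all 6 libraries, in 23.8% of those counted in 3 to 5, in 16.6% of those counted in 1 or 2 and in 14.7% of those with no count. The same classes differed in exon length, with medians of 5048, 5099, 2964 and 1462 bases, and longer transcripts have more room for a run.

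The dT controls held 260680, 256671 and 458945 counts and the BIO controls 35742, 89347 and 49772. Every dT library was deeper than every BIO library, with means of 325432 ± 115643 and 58287 ± 27798 (SD, n = 3 each). The exact two-sided permutation test of 3 against 3 libraries gave p = 0.1, the smallest value this design allows, for total counts. Fewer cells and less RNA per cell cannot be told apart in such pooled libraries. Depth, barcode arrangement and experiment coincide here, so what goes with each of them cannot be told apart in the counts as deposited. Levels are given as CPM, the counts of a gene scaled to a library total of 1000000. Deeper libraries resolve lower genes: 3 counts, the limit that a count of 0 leaves, stood at 6.54 CPM in dT 3 and at 83.9 CPM in BIO 1. Within each screen no library was a copy of another, since their counts differed far beyond sampling noise (chi-square per degree of freedom 5.62 to 61.5). Pairs across the screens were not compared in this way. As context, the 6 in-screen DMSO_DMSO libraries held 81806 to 198316 counts, 1071 to 2967 detected genes and 3.11% to 7.33% mitochondrial counts.

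A count was found for 10361, 9029 and 7410 genes in dT 1, dT 2 and dT 3, and for 5501, 7058 and 6440 genes in BIO 1, BIO 2 and BIO 3. The groups did not overlap (8933 ± 1478 against 6333 ± 784 genes, SD, n = 3; exact permutation p = 0.1). The deepest library, dT 3, had the fewest genes of its screen, and its 10 largest genes took 50.8% of its counts against 11.3% in BIO 1. Once each library was thinned at random to 35742 counts, the direction turned: 5998, 5530 and 3871 genes in the dT controls against 5501, 5472 and 5812 in the BIO controls (exact permutation p = 0.9). The turn rested on dT 3: without it the thinned dT controls had a mean of 5764 genes against 5595 in the BIO controls. Thinning the nuclear counts alone, to 33919 in each library and chosen after seeing the data, gave 6113, 6221 and 4469 genes against 5486, 5852 and 6309 (exact permutation p = 0.8), and again the dT mean was the higher one without dT 3 (6167 against 5882). Genes seen with a single count made up 17.4% to 18.1% of the detected genes in the dT controls and 23.2% to 32.3% in the BIO controls.

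**Figure D1:**
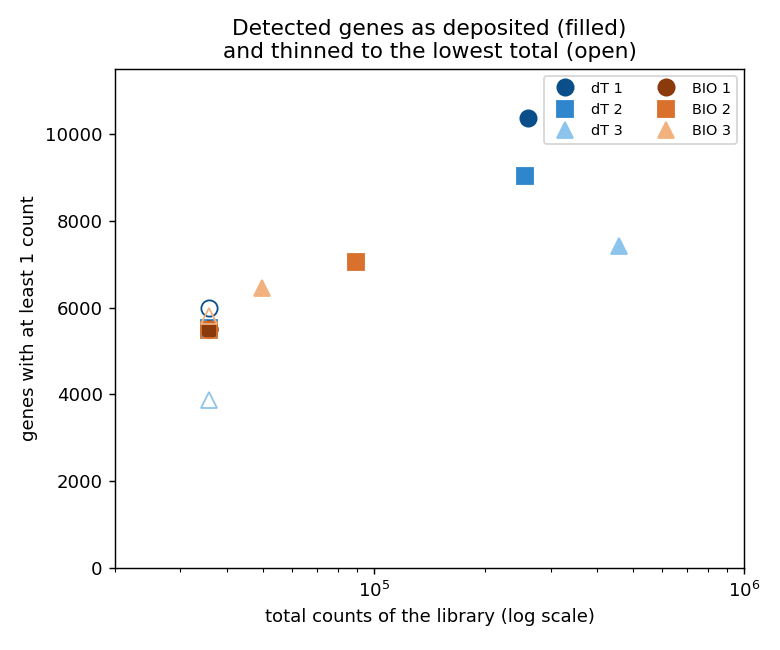
Genes with at least 1 count (vertical axis) against total counts (horizontal axis, log scale) for the 6 separate DMSO controls; filled symbols are the libraries as deposited and open symbols the same libraries thinned to 35742 counts. The filled blue dT symbols lie above the filled orange BIO symbols, while after thinning 5 libraries lie between 5472 and 5998 genes and dT 3 lies at 3871.

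Of the 24965 genes in the table, 2102 had a count in all 6 libraries and 7493 in at least 3. A further 9159 were counted in 1 or 2 libraries and 8313 in none. The 2102 shared genes were 95.7% protein-coding, against 88.5% of those counted in 3 to 5 libraries, 58.3% of those counted in 1 or 2 and 33.5% of those without a count. They included 15 mitochondrial genes, 57 ribosomal protein genes, 40 long noncoding genes and 43 pseudogenes. They took 71.2% to 86.1% of the counts of each library and 61.6% to 78.0% of the counts outside mitochondrial genes. By mean CPM, 80 of them stood at 1000 or more and together took 32.5% to 65.2% of each library, 1099 stood between 100 and 1000, and 923 between 10 and 100. A stricter demand of at least 5 counts in each library left 653 genes, and thinning to equal depth left 1155.

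The mitochondrial share of counts ran from 5.10% to 36.9% and did not separate the screens. It was 10.2%, 31.0% and 36.9% in dT 1, dT 2 and dT 3, and 5.10%, 25.0% and 28.1% in BIO 1, BIO 2 and BIO 3 (26.0% ± 14.0 against 19.4% ± 12.5, SD, n = 3; exact permutation p = 0.5). The 13 mitochondrial mRNAs and the 2 rRNAs did not move together. The mRNAs took 2.67%, 27.7% and 1.05% of the dT controls and 3.00%, 21.7% and 26.8% of the BIO controls, so dT 2, BIO 2 and BIO 3 were high and the other three low. The rRNAs took 7.51%, 3.27% and 35.8% of the dT controls and 2.10%, 3.22% and 1.23% of the BIO controls, so the groups did not overlap, although dT 2 and BIO 2 were nearly level (exact permutation p = 0.1). The ratio of mitochondrial mRNA to rRNA counts therefore ran from 0.0293 in dT 3 to 21.8 in BIO 3. Mitochondrial tRNAs took 0.0481% or less of any library.

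**Figure D2:**
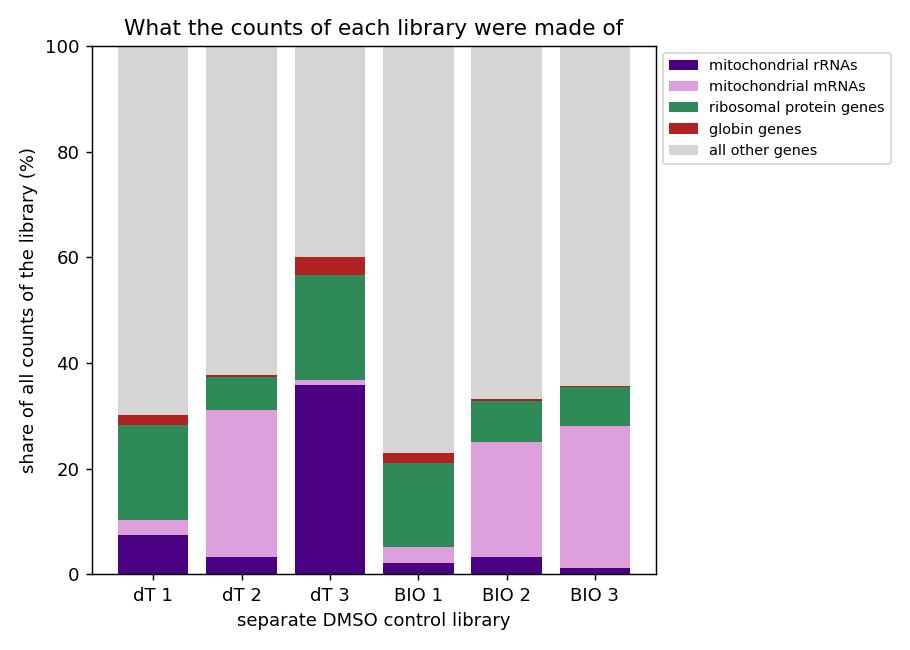
Share of each library's counts (vertical axis, percent) taken by mitochondrial rRNAs, mitochondrial mRNAs, ribosomal protein genes, globin genes and all other genes, 1 bar per separate DMSO control. Mitochondrial rRNA fills 35.8% of dT 3, mitochondrial mRNA fills 27.7%, 21.7% and 26.8% of dT 2, BIO 2 and BIO 3, and ribosomal protein genes fill more of dT 1, dT 3 and BIO 1 than of the other three.

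MT-RNR2, the 16S rRNA of the mitochondrial ribosome (chrM:1671-3229), stood at 74501, 30066 and 357616 CPM in the dT controls and at 20536, 28104 and 10247 CPM in the BIO controls. Every dT value was higher than every BIO value, but dT 2 and BIO 2 lay close together and dT 3 stood alone at 35.8% of its library. The log2 fold change in edgeR's quasi-likelihood test was 4.03 (SE 2.01, adjusted p = 0.719), which did not pass the threshold. MT-RNR1, the 12S rRNA (chrM:648-1601), did not share this order: it stood at 618, 2665 and 414 CPM in the dT controls and at 448, 4052 and 2090 CPM in the BIO controls. In dT 3, MT-RNR2 had 164126 counts and MT-RNR1 had 190.

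MT-CO1 and MT-CO3, mRNAs for cytochrome c oxidase (complex IV of the respiratory chain), had the highest mean CPM of the mitochondrial mRNAs. MT-CO1 stood at 9149, 105575 and 3471 CPM in the dT controls and at 7023, 74843 and 80608 CPM in the BIO controls. MT-CO3 ranged from 2151 CPM in dT 3 to 57984 CPM in BIO 3, and MT-CO2 from 1076 CPM in dT 3 to 21799 CPM in BIO 3. MT-CYB, the cytochrome b of complex III, ranged from 1170 CPM in dT 3 to 52495 CPM in dT 2. In each of these mRNAs dT 2, BIO 2 and BIO 3 were the high libraries, dT 3 was the lowest, and the screens overlapped. Among the subunits of complex I, the high libraries were the same for MT-ND1 from 1155 to 30660 CPM, MT-ND5 from 471 to 19328 CPM, MT-ND4 from 599 to 10347 CPM and MT-ND4L from 246 to 8720 CPM. The mean levels of MT-ND2, MT-ND3 and MT-ND6 were 391 ± 283, 87.3 ± 107 and 164 ± 170 CPM (SD, n = 6).

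The ATP synthase mRNAs had few counts, MT-ATP6 from 3 to 92 and MT-ATP8 from 0 to 12, and MT-ATP8 was the mitochondrial mRNA that was not counted in all 6 libraries. MT-ATP8 overlaps MT-ATP6, MT-ND4L overlaps MT-ND4, and MT-ND6 lies on the opposite strand from its neighbours. Whether the counting used strand is not given in the sources used here, so the split within these pairs is uncertain. Nuclear copies of mitochondrial genes took 0.00654% to 0.198% of the counts, with MTCO1P12 on chromosome 1 (631074-632616) the highest at 261 counts in dT 2, and reads shared with them cannot be told apart here. Per kilobase of exon the order of the mean levels was MT-RNR2 (55706 CPM per kb), MT-CO3 (32713), MT-CO1 (30336), MT-CYB (18693) and MT-CO2 (16869), followed by HBG2 (14743) as the first nuclear gene. MT-CO3 and MT-CO1 did not differ beyond their spread over the libraries.

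**Figure D3:**
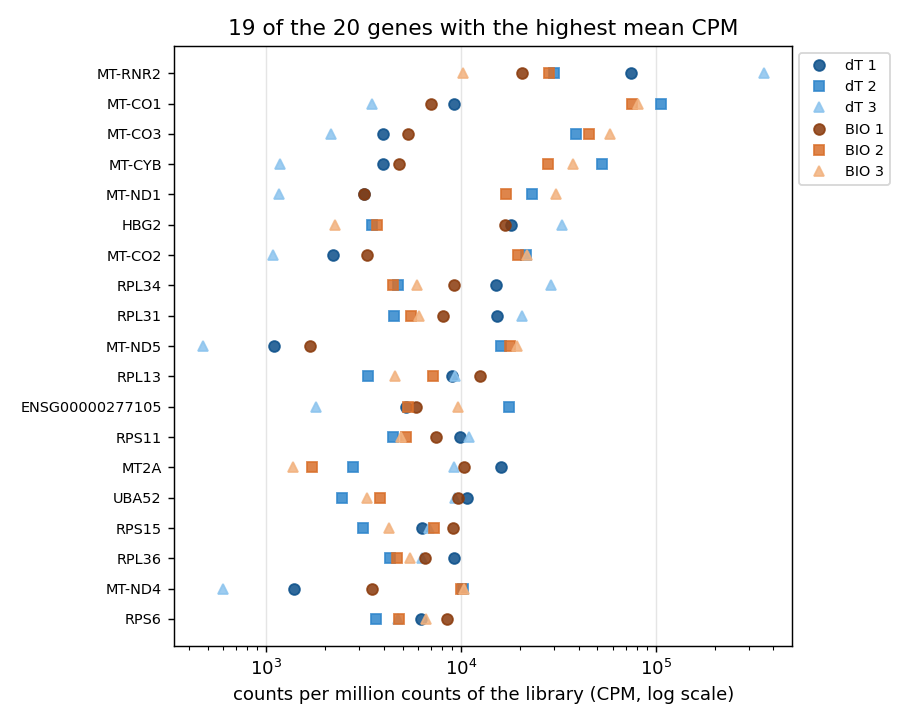
CPM (horizontal axis, log scale) of 19 of the 20 genes with the highest mean CPM over the 6 separate DMSO controls, 1 symbol per library. In the mitochondrial mRNAs dT 2, BIO 2 and BIO 3 lie to the right and dT 3 to the left, whereas in HBG2 and RPL34 dT 3 lies furthest to the right.

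Among the nuclear genes, HBG2, a gamma-globin of fetal hemoglobin, had the highest mean. It stood at 17945, 3503 and 32777 CPM in the dT controls and at 16703, 3693 and 2250 CPM in the BIO controls. The high libraries dT 1, dT 3 and BIO 1 came from both screens, and the groups overlapped (29064 ± 29875 against 5526 ± 4921 CPM after scaling by edgeR's TMM factors, SD, n = 3; edgeR adjusted p = 0.713). With mitochondrial genes taken out of the total its spread stayed wide, from 3130 CPM in BIO 3 to 51910 CPM in dT 3. HBG1, which is nearly identical in sequence, had 8, 0 and 32 counts in the dT controls and 1, 0 and 0 in the BIO controls, and reads from the pair may have been assigned to either gene. The annotated HBG2 span on chromosome 11 (5253190-5505605) also overlaps HBE1.

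HBE1, the embryonic epsilon-globin, had 49, 0 and 133 counts in the dT controls and 5, 1 and 0 in the BIO controls. HBZ, the embryonic zeta-globin, was counted in all 6 libraries, with 196, 25 and 226 counts against 40, 14 and 9. HBA1 had 25, 3 and 23 against 5, 2 and 0 counts, and HBA2 had 16, 0 and 15 against 1, 2 and 1. These counts come from libraries of unequal depth. In CPM, HBZ stood at 752, 97.4 and 492 against 1119, 157 and 181, and HBA1 at 95.9, 11.7 and 50.1 against 140, 22.4 and 0. Both were thus highest in BIO 1, whereas HBE1 was highest in dT 3 at 290 CPM and HBA2 in dT 1 at 61.4 CPM. All globin genes together took 1.92%, 0.369% and 3.39% of the dT controls and 1.82%, 0.392% and 0.247% of the BIO controls, again high in dT 1, dT 3 and BIO 1.

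The erythroid and K562 list held 21 genes, of which 7 were counted in all 6 libraries and 18 in at least 3. GATA1, the factor that drives erythroid genes, stood at 234, 81.8 and 56.7 CPM in the dT controls and at 392, 89.5 and 40.2 CPM in the BIO controls, and its difference between screens (log2 0.37, SE 0.86, adjusted p = 0.938) turned sign under other scalings. BLVRB, a biliverdin reductase of heme breakdown, had the widest range of all nuclear genes with at least 20 counts in each library, from 117 CPM in dT 2 to 8142 CPM in BIO 1. UROD, an enzyme of heme synthesis, was among the most even ones, from 495 to 811 CPM. Of the other regulators, TAL1 had counts in 5 libraries, LMO2 in 5, NFE2 in 4 and KLF1 in 3.

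Some genes often used to recognise K562 cells were scarce or without counts. ITGA2B (integrin alpha-IIb) had 0 counts in all 6 libraries, which at the depth of dT 3 allows up to 6.54 CPM. GYPB was counted in dT 1 and BIO 1 only, with 10 and 2 counts. ALAS2, an erythroid enzyme of heme synthesis, was counted in dT 1 and dT 3 only, with 5 and 32. TFRC, the transferrin receptor, had 8, 2 and 1 counts in the dT controls and 2, 7 and 4 in the BIO controls. On the CPM scale TFRC was lower in every dT library, at 2.18 to 30.7 against 56.0 to 80.4 CPM, and its log2 fold change of -1.88 did not pass the test (SE 1.27, adjusted p = 0.725). Of the K562 markers checked, HBG2, HBZ, GATA1, TFRC, BCR and ABL1 were among those counted in all 6 libraries, TFRC at low counts.

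Markers of other blood cells were near 0. Of the T cell markers, CD3D had at most 6 counts in a library, CD3E was counted only in BIO 3 and CD3G only in dT 2, while CD2 and CD8A had none. Of the B cell markers, CD79A and CD79B had none. LYZ had no counts, and the granulocyte genes MPO and ELANE had at most 7 in a library. The 2 megakaryocyte genes in the table, ITGA2B and GP1BA, had none. The summed T cell list lay between 0 and 0.0161% of counts. The keratins of the epithelial list were present in all libraries, KRT8 at 294 to 867 CPM, KRT19 at 265 to 616 CPM and KRT18 at 30.5 to 196 CPM, with overlapping groups. EPCAM was counted in dT 1 and dT 2 only, and the list as a whole took 0.0841% to 0.193% of counts.

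Of the 20 genes of BCR-ABL and survival signalling, 12 were counted in all 6 libraries and 19 in at least 3. BCR stood at 468, 1258 and 32.7 CPM in the dT controls and at 420, 459 and 542 CPM in the BIO controls, so the dT controls spanned the BIO values on both sides. ABL1 stood at 184, 351 and 126 CPM against 616, 336 and 462 CPM, with dT 2 overlapping the BIO range. These counts do not distinguish the fusion from the normal genes. CRKL, an adaptor phosphorylated by BCR-ABL, ranged from 227 to 1164 CPM and MAP2K2, a kinase of the MAPK pathway, from 157 to 623 CPM, both lowest in dT 3. BIRC5 (survivin), an inhibitor of apoptosis, had 29, 20 and 37 counts in the dT controls and 2, 0 and 0 in the BIO controls. That is 111, 77.9 and 80.6 CPM against 56.0 CPM in BIO 1. The counts of 0 allow up to 33.6 CPM in BIO 2 and 60.3 CPM in BIO 3. Its log2 fold change of 3.53 did not pass the test (SE 1.41, edgeR adjusted p = 0.662). NRAS and MAP2K1 had at most 12 counts in any library.

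Ribosomal protein genes were the largest nuclear group. They took 18.1%, 6.29% and 19.8% of the dT controls and 16.0%, 7.80% and 7.39% of the BIO controls. Without mitochondrial genes in the total the shares were 20.1%, 9.12% and 31.3% against 16.8%, 10.4% and 10.3%. The high libraries were dT 1, dT 3 and BIO 1, the same as for the globins, and these libraries were the high ones with and without the mitochondrial genes. RPL34 stood at 15041, 4757 and 29016 CPM in the dT controls and at 9233, 4455 and 5967 CPM in the BIO controls, and RPL31 had the same high libraries. RPL8, RPS9, RPL19, RPL36 and RPS6 varied less: once mitochondrial genes were left out, their highest and lowest libraries differed by 1.36-, 1.52-, 1.58-, 1.66- and 1.73-fold, among the most even of the 120 nuclear genes with at least 20 counts in each library, whose median was 3.62-fold. This minimum was chosen after the values were seen. Ribosomal protein pseudogenes took 0.317% to 0.990% of counts, with RPS15P4 the highest at 982 to 2700 CPM, and reads shared with their parent genes cannot be told apart.

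Outside the ribosome the most even nuclear genes were UBR4, a ubiquitin ligase (1.39-fold between the highest and the lowest library), TMEM183A (1.68-fold), MZT2A (1.69-fold) and UROD (1.79-fold). The most uneven after BLVRB (50.6-fold) were HBG2 (16.6-fold), PRRC2A (16.3-fold), MAD2L2 (15.1-fold) and GATA2 (13.9-fold), a hematopoietic transcription factor. GATA2, PRRC2A, the chromatin remodeller SMARCA4 and the splicing cofactor SRRM2 had their lowest value in dT 3, at 93.2, 72.5, 155 and 197 CPM outside mitochondrial genes. Of the 120 genes, 35 had their highest value in dT 3 and 28 in BIO 1, against 9 in dT 2. The identifier ENSG00000277105, which no name table used here matched, stood among the 20 highest at 5186, 17618 and 1808 CPM in the dT controls and 5847, 5361 and 9664 CPM in the BIO controls.

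Nuclear subunits of the respiratory chain followed the ribosomal proteins rather than the mitochondrial mRNAs in which libraries were high. The 31 genes took 2.75%, 0.835% and 2.70% of the dT controls and 2.44%, 0.603% and 0.549% of the BIO controls. UQCRQ, a subunit of complex III, stood at 6606, 1890 and 7652 CPM in the dT controls and at 4672, 1668 and 1447 CPM in the BIO controls. COX5B and COX6B1, subunits of complex IV, ranged from 643 to 5316 and from 779 to 3702 CPM. MT-CO1 and COX5B, 2 subunits of the same enzyme, thus had opposite high libraries: in dT 2 MT-CO1 was at 105575 CPM and COX5B at 1551, and in dT 1 they were at 9149 and 4676 CPM.

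Metallothioneins, which bind zinc and copper, and the ferritin light chain FTL showed the same high libraries. MT2A stood at 16016, 2770 and 9182 CPM in the dT controls and at 10380, 1712 and 1366 CPM in the BIO controls. MT1X ranged from 261 to 2946 CPM and FTL from 1326 to 8226 CPM. The redox enzyme GSTP1 ranged from 583 to 3809 CPM, high in dT 1, dT 3 and BIO 1, whereas GPX4, which reduces lipid peroxides, was lowest in BIO 1 at 140 CPM and highest in BIO 3 at 482 CPM.

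Glycolysis, chaperone and proteasome genes varied less. The glycolysis list took 0.373% to 0.867% of counts, with ENO1 at 1145 to 4197 CPM, GAPDH at 386 to 1875 CPM and PKM at 346 to 763 CPM. The chaperone list took 0.537% to 0.918%, with HSPA5 at 522 to 2413 CPM, HSP90AA1 at 739 to 1567 CPM and HSP90AB1 at 675 to 1869 CPM. The proteasome list took 0.199% to 0.439%, with PSMB7, PSMD2 and PSMC5 at means of 777 ± 306, 389 ± 149 and 381 ± 126 CPM (SD, n = 6). Translation factors took 0.663% to 1.28%, with RACK1 at 2150 to 5455 CPM and EEF2 at 1157 to 5008 CPM. In none of these lists did the summed shares separate the dT controls from the BIO controls.

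The nuclear long noncoding RNAs NEAT1 and MALAT1 were high where the mitochondrial mRNAs were. NEAT1 stood at 376, 1769 and 142 CPM in the dT controls and at 532, 1701 and 2190 CPM in the BIO controls, and MALAT1 was highest in BIO 3 at 1366 CPM and dT 2 at 1321 CPM. Among splicing factors HNRNPAB also peaked in dT 2, at 1395 CPM against 240 CPM in dT 3, while YBX1 stayed between 680 and 1507 CPM. Nucleolar NCL (nucleolin) ranged from 168 CPM in BIO 1 to 1108 CPM in BIO 2.

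Proliferation genes were counted at modest depth. The list took 0.127% to 0.288% of counts, MCM7 ranged from 132 to 811 CPM and MKI67 from 15.3 CPM in dT 3 to 583 CPM in BIO 3. Of the actin and tubulin genes, MYL6, ACTG1 and TMSB10 had means of 1764 ± 1012, 1322 ± 1179 and 821 ± 320 CPM (SD, n = 6). Among stress genes, TRIB3 of the integrated stress response stood at 3357 CPM in BIO 1 against 70.1 to 503 CPM in the other libraries, while its regulator ATF4 was at 168 CPM in BIO 1 and 261 to 542 CPM elsewhere. The immediate early genes JUND and JUN ranged from 126 to 824 and from 30.7 to 526 CPM. The hypoxia list took 0.0113% to 0.0643%, with VEGFA between 6.54 and 382 CPM.

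**Figure D4:**
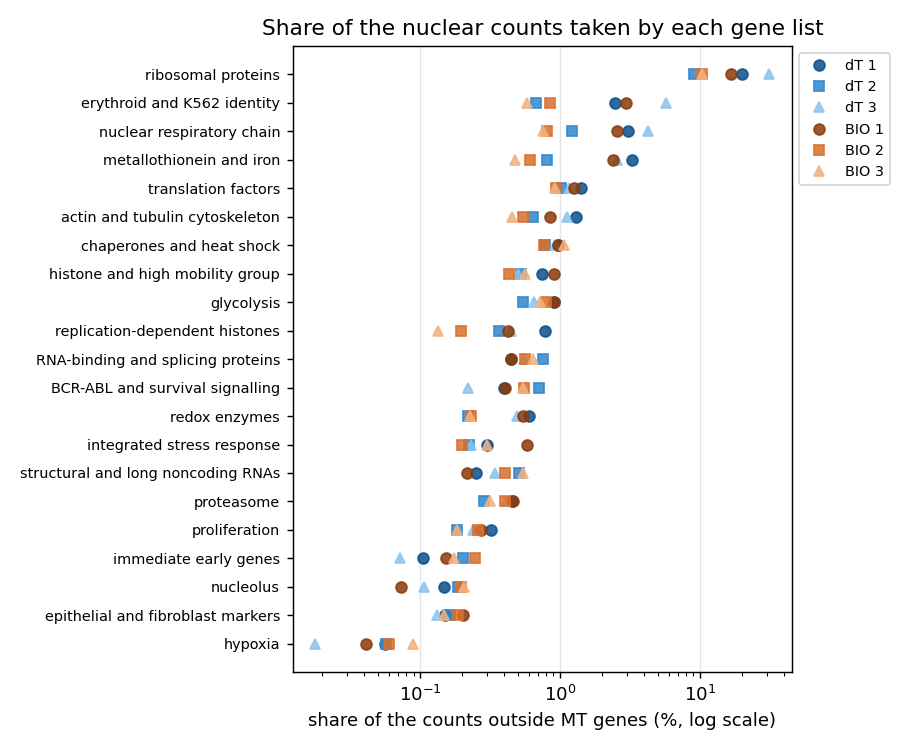
Share of the counts outside mitochondrial genes (horizontal axis, percent, log scale) taken by each of 21 gene lists in the 6 separate DMSO controls, 1 symbol per library. Ribosomal proteins lie at 9.12% to 31.3%, and in the erythroid, respiratory chain and metallothionein lists dT 1, dT 3 and BIO 1 lie to the right of the other three libraries.

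The comparison of the dT with the BIO controls asks which genes differ between the screens when no drug is present. Barcode arrangement, experiment and depth coincide in it and cannot be told apart. Of 7493 genes tested, 0 were higher (0.0%) and 0 lower (0.0%) in the dT controls at an adjusted p under 0.05 in edgeR's quasi-likelihood test, and 521 had an unadjusted p under 0.05. The lowest adjusted p was 0.224. With the mitochondrial genes removed from the counts and the totals, 0 of 7472 genes passed, 503 had an unadjusted p under 0.05 and the lowest adjusted p was 0.215. DESeq2 also called 0 genes, with 355 at an unadjusted p under 0.05 and a lowest adjusted p of 0.0650. Leaving out dT 2 gave 7 calls, RPL32, RPS27A, RPS21, RPL35A, SEM1 and WDR45 higher and ABO lower in the dT controls, with adjusted p from 0.0489 to 0.0491.

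The scaling set where the middle of the distribution lay. The median log2 fold change over all tested genes was 0.39 with edgeR's TMM factors and 60.95% of the genes had a positive value, against medians of 0.10 with DESeq2 size factors, -0.31 with total counts alone and -0.07 after thinning. Values below stand beside 0.39. TMM factors ran from 0.543 in dT 3 to 1.57 in BIO 1, and from 0.681 to 1.31 without the mitochondrial genes.

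On TMM-scaled CPM the groups did not overlap for 757 genes with the dT controls higher, 10.1% of those tested, and for 176 with the dT controls lower, 2.35%. Without the mitochondrial genes these shares were 9.64% and 2.52%. Among the 2102 genes counted in all 6 libraries they were 185 (8.80%) and 63 (3.00%), near the shares over all tested genes. In deposited counts, 342 genes had counts in all 3 dT controls and in no BIO control and 19 the reverse, whereas with totals thinned to 35742 the numbers were 66 and 99. Without dT 3, which then had the fewest genes, 259 thinned genes had counts in both remaining dT controls and in no BIO control. The reverse, counts in all 3 BIO controls and in neither remaining dT control, held for 136. Without dT 1 these numbers were 156 and 262, and without dT 2 they were 204 and 220. With a dT library left out, the dT pattern asks for fewer libraries with a count than its reverse. Such numbers are therefore not like 66 and 99.

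No member of any list passed the test in either direction, beside 0.0% of all tested genes. Over all tested genes, 60.95% had a positive log2 fold change. The groups did not overlap for 10.1% with the dT controls higher and for 2.35% with them lower. Of 74 ribosomal protein genes tested, 72 had a positive log2 fold change with a median of 1.41 (0.39 over all genes). Of these 74, 10 (13.5%) did not overlap with the dT controls higher, near the 10.1% of all genes. The nuclear respiratory chain had 29 of 30 positive (median 1.85) and 2 (6.67%) without overlap. Translation factors had 15 of 16 (1.52) and 7 (43.75%), and metallothionein and iron genes 7 of 7 (2.02) and 1 (14.3%). The actin and tubulin list had 12 of 15 (1.25) and 4 (26.7%), and proteasome 16 of 18 (1.08) and 2 (11.1%). Erythroid genes had 14 of 18 (0.97), with 0 higher and 1 lower without overlap. BCR-ABL signalling (0.30, 12 of 19 positive), chaperones (0.23, 16 of 23), glycolysis (0.42, 11 of 14), histone and high mobility group genes (0.43, 5 of 8) and proliferation genes (0.55, 10 of 16) lay nearer the median of all genes. RNA-binding proteins stood at 1.48 (15 of 20 positive), structural and long noncoding RNAs at 2.03 (6 of 8), the nucleolus list at 0.94 (7 of 10), redox enzymes at 0.94 (9 of 12) and the integrated stress response at 0.72 (8 of 10). Immediate early genes (-0.01, 5 of 10 positive), hypoxia genes (-0.06, 3 of 7) and mitochondrial mRNAs (-0.07, 5 of 13) lay below it, and the epithelial list stood at 0.36 (5 of 7). When single libraries were left out, 9 of the 28 lists with a tested gene moved to the other side of the median of all genes in that fit. Among them were mitochondrial mRNAs, from -2.56 (without dT 2) to 0.19 (without BIO 3) relative to that median, and hypoxia genes, from -1.15 (without BIO 2) to 0.08 (without dT 3). Those of BCR-ABL signalling, glycolysis, chaperones, the histone and high mobility group list, proliferation, the epithelial list and the monocyte list also moved across it. Mitochondrial rRNAs had 1 of 2 positive (1.83, 1), and ribosomal protein pseudogenes 112 of 133 (1.64), of which 39 (29.3%) did not overlap with the dT controls higher, against 10.1% of all tested genes. The T cell, B cell and monocyte lists had 1 tested gene each and the megakaryocyte list none. With total counts alone the medians of BCR-ABL signalling, glycolysis, chaperones, the histone and high mobility group list, proliferation and the epithelial list were negative, at -0.37, -0.32, -0.42, -0.35, -0.14 and -0.42, where the median of all genes was itself -0.31, and that of chaperones was -0.05 with DESeq2 size factors.

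Since no gene passed, the genes described next are the 8 with the smallest unadjusted p in each direction among those counted in all 6 libraries, and none is a call. On the higher side, 4 of the 8 encode ribosomal proteins. RPL32 had 202, 44 and 331 counts in the dT controls and 6, 7 and 1 in the BIO controls, a log2 difference of 3.59 (SE 0.86, unadjusted p = 0.000379, adjusted p = 0.585). RPS27A, a fusion of ubiquitin and a ribosomal protein, had 138, 30 and 385 against 7, 1 and 2 counts. RPS21 had 415, 71 and 649 against 17, 15 and 6, and RPL27 had 180, 32 and 385 against 11, 4 and 5. In each of these dT 2 was the lowest dT library, and TMM-scaled values of RPL27 overlapped between the screens. These genes have processed pseudogenes, with which reads may be shared.

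The other 4 were 2 histones, SEM1 and SSBP1. HIST1H3B, an H3 histone gene on chromosome 6 (26031650-26032060), had 478, 237 and 271 counts in the dT controls and 16, 12 and 1 in the BIO controls (log2 fold change 3.31, SE 0.80, adjusted p = 0.585). H4C9, an H4 histone gene, had 45, 43 and 55 counts against 1 in each BIO library, the smallest relative spread within the dT controls of the 16 genes (209 ± 16.4 against 15.6 ± 4.40 TMM-scaled CPM, SD, n = 3). SEM1, a proteasome lid subunit, had 222, 11 and 245 against 7, 3 and 2 counts, and on TMM-scaled CPM dT 2 fell within the BIO range. SSBP1, the mitochondrial single-stranded DNA-binding protein, had 136, 52 and 247 against 5, 12 and 6.

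Replication-dependent histones as a class were looked at after these values were seen. The class includes HIST1H3B and H4C9, which prompted it, so its numbers are a description and lend no support to them. Of the 56 such genes in the table, 32 were tested, 28 had a positive log2 fold change with a median of 1.54 (0.39 over all genes), and 9 (28.1%) did not overlap with the dT controls higher, against 10.1% of all tested genes. Summed, they took 1.08%, 0.401% and 0.407% of the dT controls and 0.697%, 0.216% and 0.193% of the BIO controls, so the groups overlapped through BIO 1. H1-4, shown above with its longest run of 6 A, stood at 2551, 986 and 1122 CPM against 2070, 1063 and 522 CPM, and H1-2 at 1339, 331 and 632 against 811, 157 and 342. The variation of these linker histones thus ran across both screens. Of the 8 genes in the shorter histone list, which also includes HIST1H3B, 7 were tested, 7 were positive (median 2.37) and 2 (28.6%) did not overlap. HMGB2, a chromatin protein of dividing cells, stood at 1155, 947 and 1089 CPM against 364, 302 and 542 CPM (log2 fold change 2.18, SE 0.67, edgeR adjusted p = 0.585). HMGA1, the member of the histone and high mobility group list with the highest mean CPM, had a log2 fold change of 0.21. The median of that list was 0.43.

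On the lower side counts were small apart from ABO. ABO, the glycosyltransferase of the blood group locus on chromosome 9, had 20, 174 and 11 counts in the dT controls and 31, 212 and 174 in the BIO controls, which is 76.7, 678 and 24.0 against 867, 2373 and 3496 CPM (log2 fold change -2.65, SE 0.88, adjusted p = 0.624). It was high in the libraries rich in mitochondrial mRNA within each screen. SHB, IRF7, FGF2, FOXL2, RSBN1L, TEKT4P2 and MLLT1 had 1 to 9 counts in the dT controls and 1 to 32 in the BIO controls. The interferon regulator IRF7 had 4, 3 and 1 against 1, 20 and 8, and the growth factor FGF2 had 1, 8 and 1 against 1, 32 and 2, so BIO 2 alone held most of the counts of both.

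**Figure D5:**
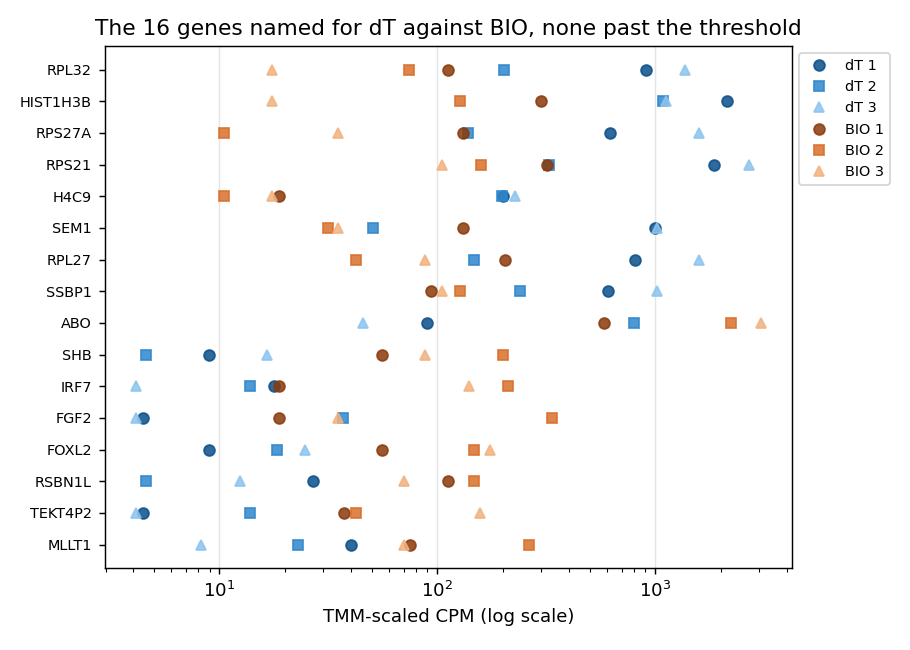
TMM-scaled CPM (horizontal axis, log scale) of the 8 genes higher (top) and 8 genes lower (bottom) in the dT controls with the smallest unadjusted p among genes counted in all 6 libraries, 1 symbol per library; no gene passed an adjusted p under 0.05. The blue dT symbols of H4C9 lie together and to the right of the orange BIO symbols, while in SEM1 and ABO dT 2 lies among the BIO libraries.

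Genes outside that rule were picked after their values were seen. WDR45, an autophagy protein on chromosome X (49071470-49101170), had the lowest adjusted p of all, with 212, 153 and 169 counts in the dT controls and 2, 5 and 0 in the BIO controls (log2 fold change 4.55, adjusted p = 0.224). DCTN2, a subunit of the motor cofactor dynactin, had 44, 30 and 48 counts in the dT controls (130 ± 34.1 CPM, SD, n = 3). It had none in the BIO controls (edgeR adjusted p = 0.585). EPS15L1 had 19, 26 and 44 counts against none (edgeR adjusted p = 0.585) and TTC7A 18, 27 and 24 against none (edgeR adjusted p = 0.632). In the other direction ZNF446 had 3, 30 and 2 counts in the BIO controls and none in the dT controls, and LAMC1, a laminin chain, had 2, 19 and 2 against none. Both rested on BIO 2 for most of their counts. Genes counted in 1 screen alone entered the test through that screen only, so their direction was set by how they were picked. None passed the threshold.

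Over the 2102 shared genes, the libraries that resembled each other most were not those of the same screen. On log2(CPM + 10), Pearson's r was highest between dT 1 and BIO 1 at 0.76, followed by dT 1 and dT 3 at 0.75, and lowest between dT 3 and BIO 3 at 0.48. Within the dT screen r was 0.51 to 0.75, within the BIO screen 0.58 to 0.67, and between screens 0.48 to 0.76. Spearman's rho gave the same highest and lowest pairs, 0.66 and 0.36. Without the mitochondrial genes, over 2087 genes, the same pairs had r of 0.74 and 0.45. These values are across genes, which are not independent replicates, and depend on the depth of both libraries.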

How the data were processed

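Gene counts of the 6 separate DMSO controls were taken from the deposited count table of 24965 Ensembl genes and 102 libraries. Per the labels and methods, the authors primed cDNA of lysed droplets with barcoded poly-dT, purified it over biotin, amplified it by template switching, fragmented it with Tn5 and counted reads per gene; the submitters' processing notes name STAR 2.4.2a and GRCh38. The deposited counts are raw reads; no collapse of molecular identifiers is stated, so intervals and limits cover counting error only. Total counts of 35742 to 458945 bound the precision. Symbols came from a name table (24539 genes matched) and GENCODE release 29.

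Members, gene lists and tests were chosen with earlier results of these data known. CPM were scaled to all counts or to counts outside the 29 MT- genes. The fit, dT minus BIO, took the genes that 3 or more of the 6 libraries counted and was made with edgeR 4.0.16 (TMM, quasi-likelihood, Benjamini-Hochberg, threshold 0.05) in R 4.3.3, which was tested on simulated data. Totals, detected genes and mitochondrial percent were compared with exact permutation tests (scipy 1.17.1). Alternatives were other scalings and filters, DESeq2 1.42.0, a replicate block, thinning and leaving out each library. Named genes were the 20 highest by mean CPM, the 8 smallest unadjusted p in each direction among genes counted in all 6 libraries (used because fewer than 5 passed), the 3 highest members of each list, and HBG1, HBG2, HBE1, GATA1, BCR, ABL1, BIRC5, TFRC and the mitochondrial mRNAs and rRNAs. Same-numbered dT and BIO libraries were not treated as pairs. A few genes that this rule or the lists name are not reported here.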

Additional observations from a re-analysis of the deposited data

How the results depend on the processing

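The count of 0 genes past the threshold held in 14 of 16 alternatives: other scalings, other filters, DESeq2, thinning, removal of the mitochondrial genes and 5 of the 6 fits that left out a library. Leaving out single libraries gave 0 to 7 genes, the 7 without dT 2, and edgeR's older quasi-likelihood method with estimated trended dispersions, chosen after seeing the data, gave 1, WDR45 (adjusted p = 0.00856); the cause was not tested. The replicate block, used because the libraries share the numbers 1 to 3, left 0 genes with 290 at an unadjusted p under 0.05. Deviations of same-numbered libraries from their screen means had r of 0.143, 0.0819 and -0.0868, and not every library correlated best with its own number. These values cannot decide whether equal numbers pair the libraries, since the deviations also hold counting noise.

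The 2102 genes counted in all 6 libraries fell to 1155 after thinning and to 653 with at least 5 counts in each, both by construction, and were 2136 to 2554 when a library was left out. The difference in detected genes, 2600 more in the dT controls, became -462 after thinning of totals and -281 after thinning of nuclear counts, the latter chosen after seeing the data, and in the deposited counts was 1887 to 3362 with a library left out; that in total counts was 200388 to 301526. The difference in mitochondrial percent, 6.63 percentage points, became -6.70 for mitochondrial mRNAs alone and ran from -0.52 (without BIO 1) to 14.5 (without dT 1). Among single genes none past the threshold, GATA1 turned from 0.37 to -0.0046 with DESeq2 size factors, -0.38 with total counts, -0.25 after thinning and -0.049 in DESeq2, and ran from -0.28 (without dT 1) to 1.34 (without BIO 1) when single libraries were left out. BCR ran from -0.37 (without dT 2) to 1.35 (without dT 3), and MT-CO1, at -0.04, from -2.46 (without dT 2) to 0.48 (without dT 3), with 0.013 when no filter was used. Depth limits the BIO controls most: 3 counts stand for 33.6 to 83.9 CPM there.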
